A study of Mus musculus with 2 samples.

Results

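The matrix metalloproteinases (MMPs) and their tissue inhibitors (TIMPs) were followed in mesenchymal stromal cells (MSC) of gut grafts through 10 genes, Mmp2, Mmp14, Mmp23, Mmp3, Mmp10, Mmp13, Timp1, Timp2, Timp3 and Timp4, taken by symbol from the 28692 genes of each count table. All 10 were found once in each table. Gut of mid-gestation EYFP (C57BL/6) mouse embryos, either the large intestine (LI) or the small intestine (SI), had been grafted beneath the kidney capsule of wild-type adults and was taken 4 weeks later. The labels' title, source, tissue and treatment name grafts, whereas their description speaks of adult stroma at homeostasis, and the samples are taken here as grafts. The study pooled several grafts for the LI library, and pooling in the SI library is not given in the sources used here. Live YFP+ Itgb1+ cells lacking CD45, Ter119, BP3, CD31, EpCAM and L1CAM were then sorted for droplet single-cell RNA-seq, as 1 library for each kind of graft. The YFP gate selects cells of the embryo over cells of the host, and by their Xist and Y-linked transcripts both libraries held male and female cells. With 1 library per group there was no replicate check, no test between groups was made, and every interval given covers counting error only.

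MMPs are zinc-dependent endopeptidases that cut collagens, proteoglycans and other matrix proteins, and most are secreted as inactive precursors. TIMPs bind the active site of MMPs and block it, and the balance between both sets how fast matrix is turned over in tissues such as the gut lamina propria, where fibroblasts are a main source. Mmp2 (gelatinase A) and Mmp14 (a membrane-anchored collagenase that activates the Mmp2 precursor, with Timp2 as a bridge) form 1 activation route, whereas Mmp3 and Mmp10 (stromelysins 1 and 2) and Mmp13 (collagenase 3) are inducible secreted enzymes.

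The genes of the inducible enzymes lie on the + strand of chromosome 9 in GRCm38 (mm10), with Mmp13 at chr9:7272514-7283331, Mmp3 at chr9:7445822-7455975 and Mmp10 at chr9:7502352-7510240, a span of 237.726 kb. Timp1 lies on the X chromosome at chrX:20870166-20874735, within Syn1 on the opposite strand and without overlap of exons. The exons of Timp3 (chr10:86300372-86349506) and Timp4 (chr6:115241892-115252205) overlap those of Syn3 and Syn2 on the opposite strand, so that reads there can be told apart by strand alone. Because the results turn on them, the 120 bases before the RefSeq start (GRCm38.p6) of these 3 genes and of Timp1 are shown here. All are on the + strand, with TGANTCA and TATAAA in capitals. TGANTCA, with any base at N, reads the same on both strands. It takes in the letters bound by AP-1 factors, found here as TGACTCA or TGAGTCA.
Mmp13: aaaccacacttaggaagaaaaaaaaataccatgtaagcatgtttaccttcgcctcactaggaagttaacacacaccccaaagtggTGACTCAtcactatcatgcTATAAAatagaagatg
Mmp3: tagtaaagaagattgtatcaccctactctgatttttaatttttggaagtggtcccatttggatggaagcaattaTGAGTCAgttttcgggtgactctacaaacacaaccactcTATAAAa
Mmp10: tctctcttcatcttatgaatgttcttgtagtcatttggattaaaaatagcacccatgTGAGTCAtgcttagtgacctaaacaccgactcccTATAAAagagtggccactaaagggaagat
Timp1: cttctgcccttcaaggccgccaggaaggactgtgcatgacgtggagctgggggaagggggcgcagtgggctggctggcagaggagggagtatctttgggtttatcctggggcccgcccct
These windows are chr9:7272394-7272513, chr9:7445702-7445821, chr9:7502222-7502341 and chrX:20870046-20870165. The AP-1 letters began 35, 46 and 63 bases before the start of Mmp13, Mmp3 and Mmp10, and TATAAA was also found in each of the 3, whereas Timp1 held neither. Of the 9 members with an entry in the promoter table, the other 6, Timp1 included, held neither run of letters. Over 32851 promoters cut to the same length, 1120 (3.41%) held TGANTCA, with any base at N, and 2083 (6.34%) held TATAAA on either strand. These matches are a description of letters and not of binding.

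The LI library held 63348069 UMIs (unique molecular identifiers, 1 per captured transcript) in 11568 barcodes and the SI library 54918006 in 9631. Barcodes were kept where 500 or more genes were detected and mitochondrial UMIs made up 10% or less, which left 9873 LI and 7910 SI cells with medians of 5288 and 5682 UMIs. The libraries shared 26 barcode sequences. Cells were placed in classes by marker genes counted per cell, and 7687 LI cells (77.9%) and 5686 SI cells (71.9%) were of the fibroblast (FB) lineage. The FB classes were PDGFRAhi-like (453 LI and 366 SI cells), CD81-like (1353 and 1633), Fgfr2-like (2475 and 1518), adventitial-like (834 and 547) and other FB (2572 and 1622). The mural and muscle classes were pericyte-like (250 and 384), vascular mural-like (258 and 612) and visceral smooth muscle cell (SMC)-like (194 and 247). Among check genes that the gates had not used, 3 and 4 of 4 were at least 2-fold higher in PDGFRAhi-like FB of LI and SI, 2 and 4 of 4 in adventitial-like FB, and all in the 3 mural and muscle classes. In Fgfr2-like FB 1 and 2 of 4 were, and in CD81-like FB 1 and 0 of 4, so these names rest on the gate genes themselves. PDGFRAhi-like FB also held the Fgfr2 gate genes, at a median of 94.8 UMIs per 10000 in LI (85.1 in Fgfr2-like FB) and 31.1 in SI (74.7), so that in LI both classes shared them. Fgfr2-like FB went against 1 of their check genes, as Ptn was lower by 3.29 (LI) and 4.21 (SI) on the log2 scale. Immune markers summed to 37.5 CPM (UMIs scaled to the same total in every group of cells) in LI and 43.1 CPM in SI fibroblasts, endothelial markers to 10.0 and 15.7 CPM and epithelial markers to 5.28 and 3.65 CPM.

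A UMI of the constitutive proteases Mmp2 and Mmp14 and of the inhibitor Timp2 was found in most fibroblasts of both grafts, whereas 52.4% of LI and 51.6% of SI fibroblasts were at 0 for Timp3. The grafts differed in 3 members at the 2-fold line, Timp1 and Mmp3 (higher in LI) and Mmp10 (higher in SI). Levels are pooled CPM, the UMIs of a gene over all UMIs of a class, and log2 ratios carry a pseudocount of 1 CPM while their 95% intervals do not. Of the 10 members, 8 reached 10 CPM in fibroblasts of at least 1 library, and 3 of these 8 were past 2-fold, against a background of 3.52% of 8618 genes at the same level (1.9% higher in LI and 1.61% lower). The median log2 ratio, LI over SI, was 0.10 over the 8 members and -0.01 over all genes.

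Mmp2 was at 640 CPM in LI and 577 CPM in SI fibroblasts, a log2 ratio of 0.15 (0.12 to 0.17). Mmp14 was at 584 and 582 CPM (0.00, -0.02 to 0.03). Mmp23, a family member made as a type II membrane protein, was at 239 and 230 CPM (0.05, 0.01 to 0.09). Over all fibroblasts these 3 enzymes thus differed little between the grafts, but the sexes went apart. In male cells the log2 ratio was -0.54 for Mmp2, -0.31 for Mmp14 and -0.59 for Mmp23, and in female cells it was 0.27, 0.02 and 0.17. Mmp3 was at 73.7 CPM in LI and 33.1 CPM in SI, 2.19-fold higher in LI, with a log2 ratio of 1.13 (1.06 to 1.25). Mmp10 was at 4.78 CPM in LI and 27.7 CPM in SI, 4.96-fold higher in SI, with a log2 ratio of -2.31 (-2.74 to -2.33 without the pseudocount).

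Among the inhibitors, Timp1, which is induced by cytokines and growth factors in many stromal cells, was at 1353 CPM in LI and 148 CPM in SI, 9.07-fold higher in LI (log2 3.18, 3.15 to 3.23). Timp2, the inhibitor that also takes part in Mmp2 activation, was at 617 and 668 CPM (-0.12, -0.14 to -0.09). Timp3, which binds to the matrix and also inhibits several ADAM proteases, was at 295 and 262 CPM (0.17, 0.13 to 0.21). Over all fibroblasts, Timp2 was at a ratio of -0.73 in male and 0.09 in female cells and Timp3 at 0.73 and -0.03, all under 2-fold. By class, male cells passed it for Timp2 in adventitial-like FB (-1.28) and for Timp3 in CD81-like (1.45) and other FB (1.09). In female cells no fibroblast class did so for these inhibitors. Mmp13 (0.91 and 2.62 CPM) and Timp4 (0.42 and 0.38 CPM) were below the minimum in every class and library, and no ratio is given for them. Over all processing alternatives the log2 ratio ranged from 2.64 to 3.26 for Timp1 and from -2.86 to -1.74 for Mmp10, but from 0.43 to 1.19 for Mmp3, whose lowest value came from the mean of per-cell CPM. With likely doublets taken out, Mmp3 was just under the 2-fold line, at 0.99.

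**Figure D1:**
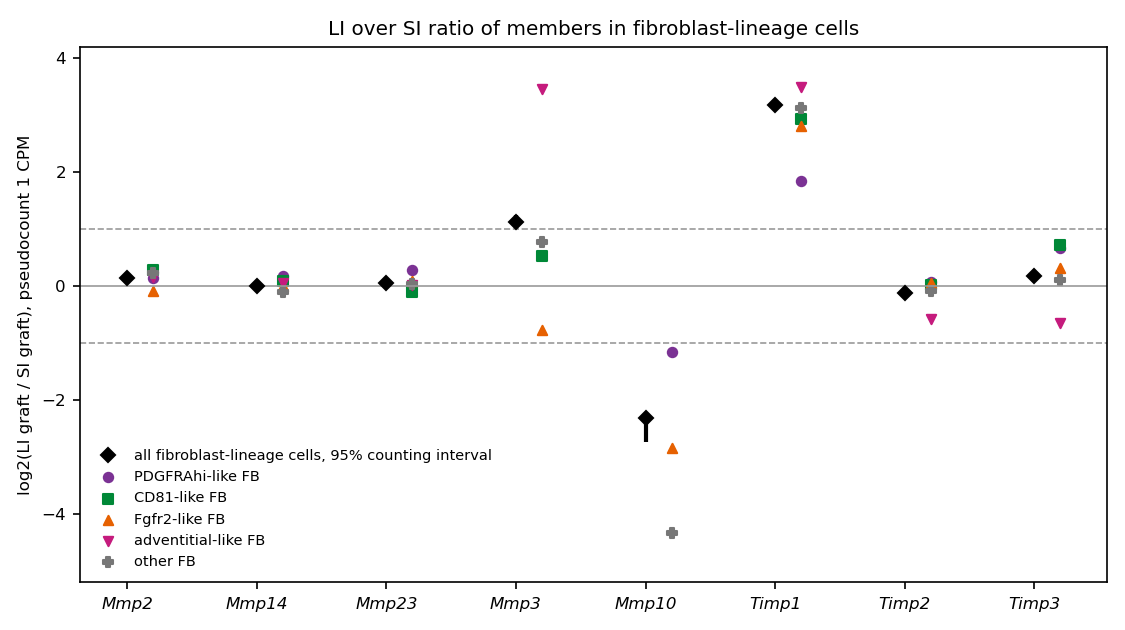
Log2 ratio of pooled CPM, LI graft over SI graft, for 8 members in all fibroblast-lineage cells (black, with 95% counting intervals) and within each of 5 fibroblast classes (colours), with dashed lines at 2-fold. Timp1 lies above the upper line in every class, Mmp10 below the lower line where it reached 10 CPM, and Mmp3 spreads from -0.77 in Fgfr2-like to 3.47 in adventitial-like FB; the Mmp10 interval lies below its point since it has no pseudocount.

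Across classes, the constitutive enzymes separated fibroblasts from mural and muscle cells and varied little among fibroblasts. Mmp2 ran from 556 CPM (adventitial-like) to 678 CPM (other FB) over the LI fibroblast classes and from 499 CPM (adventitial-like) to 677 CPM (Fgfr2-like) over those of SI. It was between 70.0 and 111 CPM in the LI mural and muscle classes and between 38.4 and 78.3 CPM in those of SI. The fibroblast and mural ranges did not overlap in either library. In LI the intervals of the 4 highest classes overlapped from each to the next, whereas in SI Fgfr2-like FB stood above the rest. Mmp14 followed the same division, from 494 to 628 CPM over LI and from 476 to 660 CPM over SI fibroblast classes, with 199 to 289 and 185 to 259 CPM in mural and muscle cells. The adventitial-like class was the lowest fibroblast class for both enzymes in both grafts.

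Mmp23 was highest in adventitial-like FB, at 371 CPM (358 to 385) in LI and 367 CPM (350 to 385) in SI, and lowest among fibroblasts in PDGFRAhi-like FB, the subepithelial class, at 133 and 110 CPM. The order adventitial-like, then CD81-like and other FB, then Fgfr2-like, then PDGFRAhi-like was seen in both grafts, with CD81-like FB overlapping a neighbour in each. Visceral SMC-like cells held 85.0 and 55.1 CPM and both vascular classes between 20.1 and 24.1 CPM. Timp2 had a similar order. It was at 691 CPM (674 to 708) in CD81-like and 670 CPM (652 to 688) in adventitial-like FB of LI, which overlapped, while in SI adventitial-like FB stood clearly first at 1004 CPM (976 to 1032) against 679 CPM in CD81-like FB.

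Timp3 reversed the division, with its highest levels in the vascular wall cells. In LI, vascular mural-like (714 CPM, 669 to 762) and pericyte-like cells (687 CPM, 640 to 737) overlapped and were followed by adventitial-like FB at 415 CPM. In SI, pericyte-like cells were at 785 CPM, vascular mural-like at 706 CPM and adventitial-like FB at 648 CPM, with no overlap among them. CD81-like FB were the lowest class in both grafts, at 235 CPM in LI and 141 CPM in SI, but with classes from clusters their SI difference from the other fibroblasts turned from -1.15 to 0.16. Against the other fibroblasts of the same library, adventitial-like FB were higher in Timp3 by 0.61 (LI) and 1.67 (SI) on the log2 scale, so that the line of 2-fold was passed in SI alone. The difference between libraries was not tested.

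**Figure D2:**
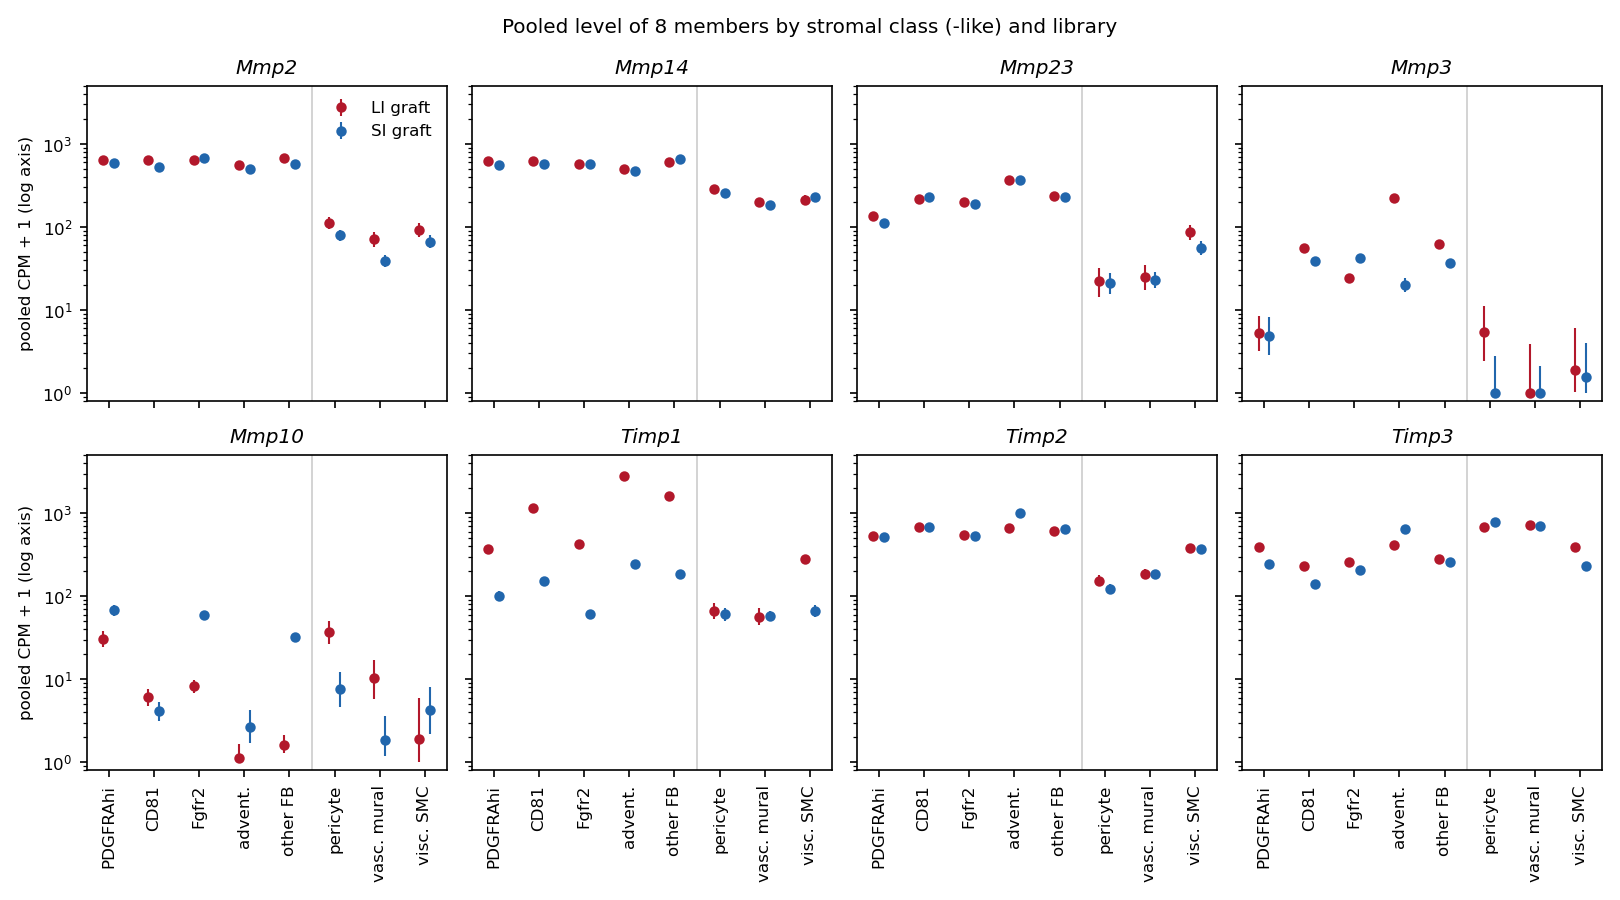
Pooled CPM plus 1 (log axis) of 8 members in 8 stromal classes of the LI graft (red) and SI graft (blue), with 95% Poisson intervals and a vertical line between fibroblast and mural or muscle classes. Mmp2, Mmp14 and Timp2 step down and Timp3 steps up from fibroblasts to the vascular classes, Timp1 differs between the grafts in each fibroblast class, and Mmp3 and Mmp10 peak in different classes.

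Taken as whole groups, mural and muscle cells against fibroblasts gave 6 of 8 members at least 2-fold lower in both libraries, against a background of 6.71% of genes, and 1, Timp3, at least 2-fold higher (background 7.69%). The Timp3 call ended with TMM scaling, under which the LI difference was 0.89. The log2 differences, LI then SI, were -2.82 and -3.33 for Mmp2, -1.33 and -1.42 for Mmp14, -2.47 and -2.90 for Mmp23, -3.36 and -1.29 for Timp1, -1.37 and -1.64 for Timp2, and 1.04 and 1.21 for Timp3. Mmp3 was also lower, with 6 UMIs in all LI and 1 UMI in all SI mural and muscle cells. Within mural and muscle cells, visceral SMC-like cells, the contractile cells of the gut wall, held more Mmp23 (log2 1.86 in LI and 1.33 in SI) and Timp2 (1.16 and 1.18) than the others, 2 of 6 members against a background of 5.01%. In female cells both calls ended, with SI differences of 0.53 and 0.95, while Timp3 was at least 2-fold lower in both libraries. It was at 368 CPM in LI and 225 CPM in SI female visceral SMC-like cells. Female pericyte-like and vascular mural-like cells held 762 and 742 CPM in LI and 761 and 714 CPM in SI. No member was past 2-fold in both libraries in pericyte-like (background 5%) or vascular mural-like cells (3.17%).

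Within the fibroblast lineage, PDGFRAhi-like FB combined the most Mmp10 with the least Mmp3. Mmp10 was at 29.9 CPM in LI and 67.6 CPM in SI PDGFRAhi-like FB, above the remaining fibroblasts by 2.86 and 1.42 on the log2 scale (1 of 8 members higher, background 3.39%). Mmp3 was at 4.23 and 3.93 CPM in the same cells, below the remaining fibroblasts by -3.92 and -2.88 (1 of 8 lower, background 2.98%). With classes from clusters the Mmp10 differences were 3.24 and 2.18, but Mmp3 in SI was at -0.82, under 2-fold. In Fgfr2-like FB, Timp1 was lower than in the other fibroblasts, by -1.96 in LI and -1.54 in SI (1 of 7 lower, background 2.04%). No member passed 2-fold in both libraries in CD81-like (background 1.14%), adventitial-like (4.37%) or other FB (0.279%).

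Mmp10 differed between the grafts in where it was found as well as in how much. In SI it was at 67.6 CPM (57.9 to 78.5) in PDGFRAhi-like and 58.4 CPM (53.4 to 63.8) in Fgfr2-like FB, which overlapped, then at 31.4 CPM in other FB, and at 3.12 and 1.65 CPM in CD81-like and adventitial-like FB. In LI it was at 29.9 CPM in PDGFRAhi-like FB and between 0.12 and 7.30 CPM in the other fibroblast classes. The LI over SI log2 ratio was -1.15 in PDGFRAhi-like, -2.84 in Fgfr2-like and -4.33 in other FB. In other FB it was -5.22 in female and -1.36 (-3.95 to -0.18) in male cells. Shares of cells with a UMI followed the CPM. With each cell thinned to 2000 UMIs, 5.61% of LI and 9.01% of SI PDGFRAhi-like FB held Mmp10, with overlapping intervals, and 0.818% and 5.54% of Fgfr2-like FB did. Over all fibroblasts the thinned shares were 0.730% and 3.19% (1.14% and 5.91% without thinning). Vascular mural-like cells had a share of 0.408% (0.010 to 2.25) in LI and 0 of 583 in SI, with median depths of 4503.5 and 4719 UMIs. The LI shares over all fibroblasts and in Fgfr2-like FB lay within this interval. It rests on 1 cell, so it cannot tell whether those shares were background. The highest LI level, 36.1 CPM in pericyte-like cells, came from 41 UMIs, of which 1 cell held 18. The 12 UMIs of LI vascular mural-like cells were all in 1 cell.

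Mmp3 was highest in adventitial-like FB in LI but not in SI. In LI, adventitial-like FB, the fibroblasts that line vessels and organ borders in many tissues, held 222 CPM (212 to 233), ahead of other FB at 62.3 CPM and CD81-like FB at 54.6 CPM. In SI, Fgfr2-like (41.0 CPM), CD81-like (37.6 CPM) and other FB (35.7 CPM) overlapped from each to the next and adventitial-like FB were lower at 19.1 CPM (15.4 to 23.4). The log2 ratio between grafts was thus 3.47 in adventitial-like FB and -0.77 in Fgfr2-like FB. The shares of cells showed the same contrast, since 11.9% (9.76 to 14.3) of LI and 1.66% of SI adventitial-like FB held Mmp3 after thinning, against 1.25% and 4.07% of Fgfr2-like FB. Over all fibroblasts, however, the thinned share was 3.1% in LI and 3.28% in SI (5.03% and 5.96% without thinning), so the higher pooled LI level was not matched by more cells with a UMI.

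Few cells carried much of the Mmp3 signal. In LI adventitial-like FB 82.6% of cells were at 0, and the 83 highest cells held 94.2% of the Mmp3 UMIs, with at most 157 of 1795 in 1 cell. Elsewhere single cells weighed more, as 1 LI CD81-like cell held 234 of the 526 Mmp3 UMIs of its class and 1 LI Fgfr2-like cell held 104 of 297. Without the highest cell of each library, the LI over SI log2 ratio was -0.16 in CD81-like, -1.27 in Fgfr2-like and 3.73 in adventitial-like FB. With 1 more gate gene required it was -1.69 in CD81-like and 0.04 in Fgfr2-like FB, so the direction in these classes was not stable, whereas the adventitial-like ratio lay between 2.86 and 3.74 over all alternatives. In adventitial-like FB the excess lay in female cells, which held 259 CPM in LI (668 cells) and 19.2 CPM in SI (3.68), while male cells held 44.4 CPM in LI (91 cells) and 25.6 CPM in SI (0.77). Vascular mural-like cells held Mmp3 in 0 of 245 LI cells and 0 of 583 SI cells after thinning, which allows shares of cells with a UMI at this depth of up to 1.22% and 0.515% (3 cells of the total) and does not limit expression.

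**Figure D3:**
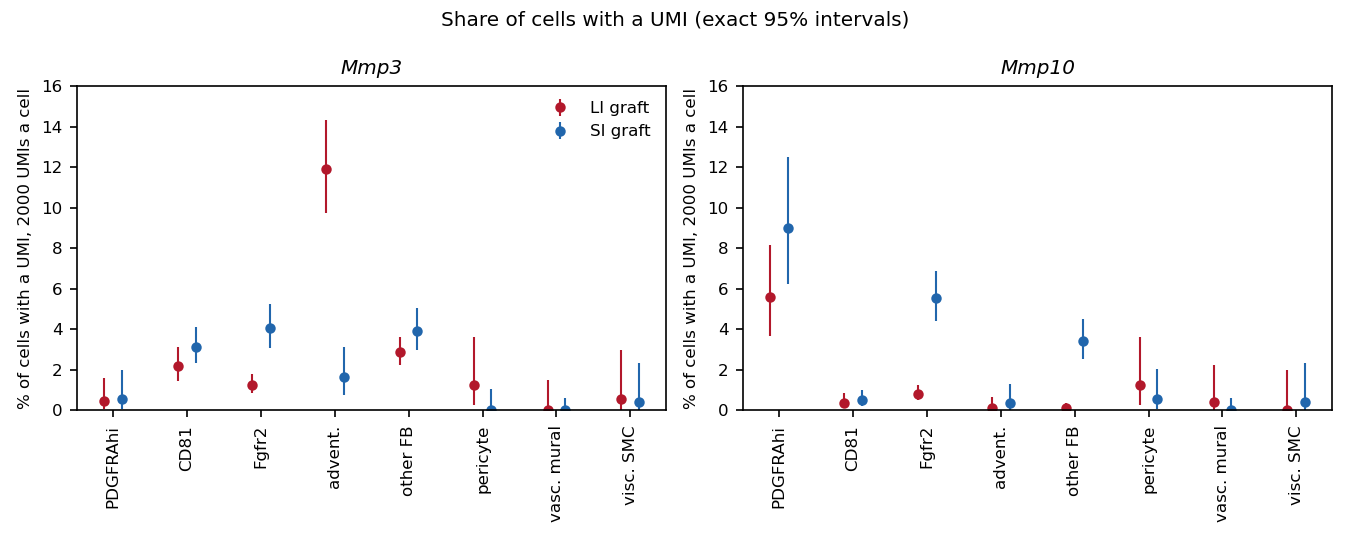
Percent of cells with a UMI of Mmp3 (left) and Mmp10 (right) by stromal class after thinning each cell to 2000 UMIs, LI graft in red and SI graft in blue, with exact 95% Clopper-Pearson intervals. Mmp3 stands out in LI adventitial-like FB (11.9%) and Mmp10 in PDGFRAhi-like FB of both grafts and Fgfr2-like FB of SI.

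The collagenase Mmp13 was rare, and in SI 16 of the 30 fibroblasts with a UMI of it also had one of Mmp10. This was a share of 53.3%, while 336 of all 5686 SI fibroblasts (5.91%) had a UMI of Mmp10. These 336 cells had 27.5 CPM of Mmp13 (21.3 to 34.9), against 0.867 CPM in the remaining 5350. Of their 67 Mmp13 UMIs 1 cell held 24, and without it the level was 17.7 CPM (12.8 to 23.8). In LI fibroblasts, 16 cells held Mmp13, of which 4 also held Mmp10 and 6 also held Mmp3, where 1.14% and 5.03% of all 7687 cells held those genes. Cells with Mmp13 were deeper, with medians of 9353 against 5877.5 UMIs in SI and 7512 against 5523 in LI, and the part of depth in these shares was not tested. In SI only 2 of the 30 Mmp13 cells held Mmp3. In LI, the 88 fibroblasts with Mmp10 had 366 CPM of Mmp3 against 70.4 CPM in the others, from 202 UMIs in 10 cells, and 181 CPM without the cell that held 104 of them. In SI the level was 31.6 CPM in cells with Mmp10 and 33.3 CPM in the others. In LI adventitial-like FB all Mmp13 UMIs were in cells with Mmp3 (9.47 CPM in 145 cells, 0 in 689), though 1 cell held 14 of these 19 UMIs.

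Over all fibroblasts of both sexes together, Timp1 had the largest ratio between the grafts of the 8 members. In female fibroblasts and in Fgfr2-like and other FB the Mmp10 ratio was larger in size. In LI, Timp1 was at 2809 CPM in adventitial-like, 1630 in other, 1159 in CD81-like, 427 in Fgfr2-like and 367 in PDGFRAhi-like FB, with no overlap between neighbours. Without the cells at or above 50 Timp1 UMIs per 10000 described below, Fgfr2-like FB of LI were at 143 CPM and PDGFRAhi-like FB at 201 CPM. In SI it was at 248 CPM in adventitial-like, 185 in other, 150 in CD81-like, 101 in PDGFRAhi-like and 59.6 in Fgfr2-like FB. The first 3 classes kept their order, and the LI over SI log2 ratio was 3.50, 3.13, 2.94, 2.82 and 1.85 in adventitial-like, other, CD81-like, Fgfr2-like and PDGFRAhi-like FB. In LI female cells the order did not hold. There CD81-like FB were at 198 CPM, near PDGFRAhi-like FB (204 CPM) and below Fgfr2-like FB (302 CPM). Pericyte-like (66.0 and 60.2 CPM) and vascular mural-like cells (56.0 and 57.0 CPM) stood at the same level in both libraries, with ratios of 0.13 and -0.02. When classes were taken from clusters, the ratio was 1.18 in Fgfr2-like and 0.03 in PDGFRAhi-like FB, where the call ended.

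Per class, members past 2-fold between the grafts, with the share of all genes past 2-fold in that class, were 2 of 7 in PDGFRAhi-like FB (6.62%), 1 of 7 in CD81-like FB (4.37%), 2 of 8 in Fgfr2-like FB (5.12%), 2 of 7 in adventitial-like FB (5.7%) and 2 of 8 in other FB (3.7%). All these calls were of Timp1, Mmp3 or Mmp10. In mural and muscle cells they were 1 of 7 in pericyte-like (6.65%), 0 of 6 in vascular mural-like (4.58%) and 1 of 6 in visceral SMC-like cells (7.81%), the last being Timp1 at 283 CPM in LI and 66.0 CPM in SI. In LI, 10 male visceral SMC-like cells held 164 of these 313 Timp1 UMIs, 122 of them in 1 cell, and in female cells the level was 52.4 CPM in LI and 35.2 CPM in SI. Of the 8 members, 2, Mmp23 and Timp1, had the same highest class in both grafts, the adventitial-like FB. This count was 5 with mean per-cell CPM and 4 in female cells.

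Over all LI fibroblasts together, few cells carried most of the Timp1. In 52.7% of LI and 63.5% of SI fibroblasts no Timp1 UMI was found, and the median cell was at 0 in both. Male LI cells were not mostly at 0, as 90.2% of them and 38.4% of female LI cells held at least 1 UMI per 10000 (41.8% and 31.4% in SI). At or above 10.07 per 10000 were 57.0% of male and 5.20% of female LI cells. The 90th percentile was 18.0 UMIs per 10000 UMIs of the cell in LI and 3.39 in SI, and the 99th 107 and 9.33. The 769 highest cells of LI, 10% of its fibroblasts, held 88.4% of the Timp1 UMIs, and the 569 highest of SI held 64.8%. When LI cells were ranked by Mmp2 or by Timp2 instead, the 769 highest held 29.3% and 31.6% of the UMIs of that gene. After thinning, 30.2% of LI and 16.6% of SI fibroblasts had a UMI of Timp1 (47.3% and 36.5% without thinning). The share in vascular mural-like cells was 10.2% in LI and 8.40% in SI (18.2% and 20.6% without thinning). Whether those UMIs were free RNA or the cells' own was not tested, so this share is not a measure of background.

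Cells with at least 50 Timp1 UMIs per 10000, a limit set after the values were seen, numbered 357 in LI (4.64% of fibroblasts, 4.18 to 5.14) and 1 in SI, and 156 LI cells lay within 20% of the limit. They were found in each LI class, with 112 adventitial-like (13.4%), 144 other (5.60%), 67 CD81-like (4.95%), 30 Fgfr2-like (1.21%) and 4 PDGFRAhi-like FB. These 357 cells held 65.0% of the Timp1 UMIs of LI fibroblasts. The remaining LI fibroblasts were still at 526 CPM, above the 148 CPM of all SI fibroblasts. The high cells also had more Mmp3 (247 against 54.6 CPM) and Timp3 (564 against 265 CPM) and less Mmp2 (372 against 669 CPM) and Mmp14 (356 against 609 CPM) than the rest. In CD81-like FB, however, Timp3 was at 245 CPM (210 to 284) in high cells and 234 CPM in the rest. At a limit of 100 per 10000, Mmp3 over all LI fibroblasts was at 131 against 72.0 CPM, but in adventitial-like FB the direction turned, with 103 CPM (76.3 to 137) in 25 high cells and 229 CPM in the rest. Of the cells given a sex, 48.2% of high cells and 8.62% of the rest were male. Of all cells, 49.0% of high cells and 13.1% of the rest were MHC class II positive. This call was made without thinning and the high cells were deeper, and the part of depth in the share was not tested. The part of sex and MHC class II in these differences was not tested. The high cells were deeper (median 13724 against 5409.5 UMIs) and held 20.5 CPM of immune markers against 39.4 CPM. Likely doublets by rate, which are the cells of highest doublet score up to a set share, made up 7.56% of high cells and 9.88% of the rest.

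**Figure D4:**
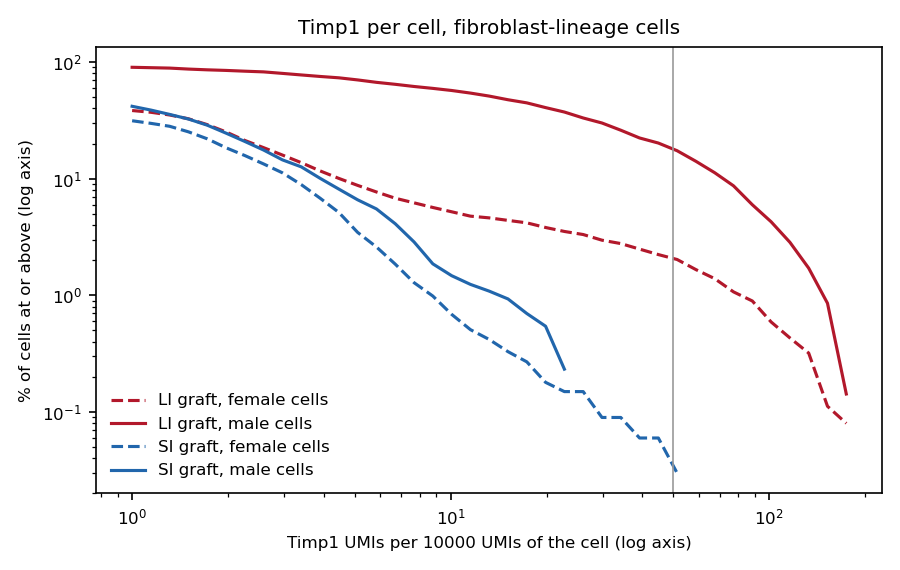
Percent of fibroblast-lineage cells (log axis) at or above each Timp1 level (UMIs per 10000 UMIs of the cell, log axis), for male (solid) and female (dashed) cells of the LI graft (red) and SI graft (blue), with a vertical line at 50. Both LI curves run on past the line, which 124 male LI cells reach, while the SI curves end near it or before it.

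Timp1 also varied with the sex of the graft cells, called from Xist or Y-linked UMIs. Male cells were 10.1% of sexed LI and 27.8% of sexed SI fibroblasts. In LI, Timp1 was at 3240 CPM in 703 male and 832 CPM in 6271 female fibroblasts (log2 1.96), and in SI at 184 CPM in 1291 male and 133 CPM in 3353 female fibroblasts (0.46). Cells of unclear sex were at 2800 CPM in LI and 134 CPM in SI. No member of 8 was past 2-fold in both libraries (background 0.829%). Sex and the embryo or graft a cell came from cannot be told apart with these libraries.

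The sex difference of LI was unequal between classes. In CD81-like FB, Timp1 was at 2665 CPM in 269 male and 198 CPM in 878 female cells (3.74), and of the 48 sexed CD81-like cells above the limit of 50 per 10000, 45 were male. In other FB it was at 3766 and 905 CPM (2.06). In adventitial-like FB, where Timp1 was highest, it was at 3790 CPM in 91 male and 2501 CPM in 668 female cells (0.60). Fgfr2-like FB had 45 male cells (2049 against 302 CPM) and PDGFRAhi-like FB had 17 (261 against 204 CPM). In SI the same 5 comparisons lay between -0.19 and 0.76.

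Within female cells alone, the LI over SI log2 ratio of Timp1 was 2.64 over all fibroblasts, 3.66 in adventitial-like, 2.49 in Fgfr2-like and 2.28 in other FB, but 0.72 in CD81-like and 0.80 in PDGFRAhi-like FB, under 2-fold. Within male cells it was 4.13 over all fibroblasts and 3.70 in CD81-like FB. The Mmp10 ratio of all fibroblasts was -2.86 in female and -0.94 in male cells. The graft difference in Timp1 was thus present in both sexes over all fibroblasts, and in CD81-like FB it was past 2-fold in male cells alone.

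**Figure D5:**
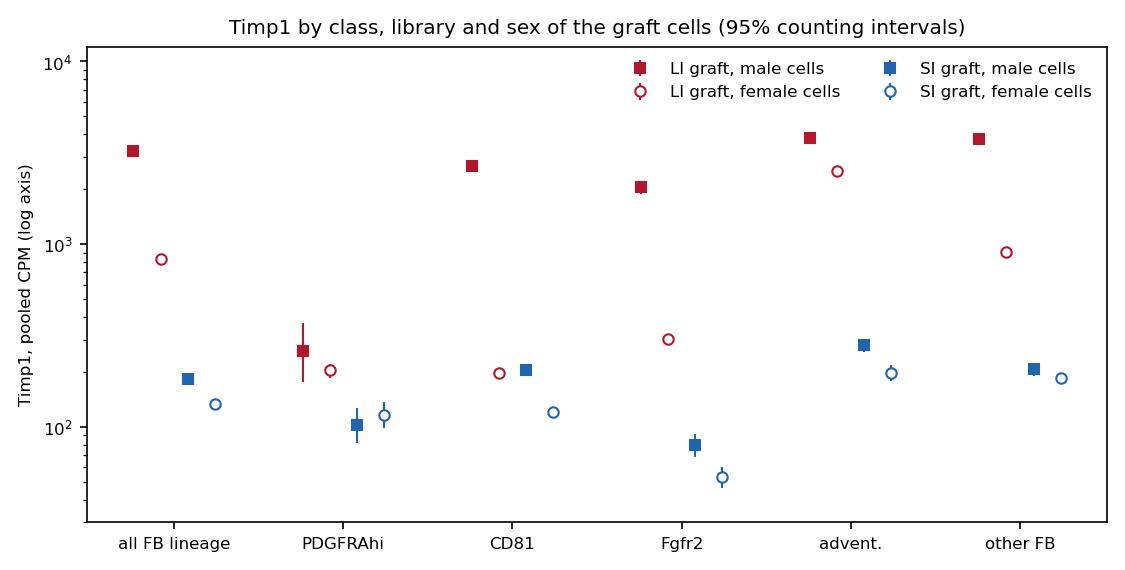
Timp1 in pooled CPM (log axis) in all FB-lineage cells and by fibroblast class for male (filled squares) and female (open circles) cells of the LI graft (red) and SI graft (blue), with 95% Poisson intervals. LI male cells lie above LI female cells in CD81-like FB (2665 and 198 CPM), where LI female cells are near the SI values, whereas in adventitial-like FB both LI sexes lie above 2000 CPM.

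Over all LI fibroblasts, Mmp2 and Timp3 were unequal between the sexes in opposite directions, both under 2-fold. Mmp2 was at 384 CPM in male and 707 CPM in female LI fibroblasts (-0.88) and at 560 and 587 CPM in those of SI (-0.07). Timp3 was at 447 and 254 CPM in LI (0.81) and 270 and 259 CPM in SI (0.06). By LI fibroblast class, the line of 2-fold was passed by Timp3 in PDGFRAhi-like (2.56) and Fgfr2-like FB (1.87), both with few male cells. Mmp2 passed it in other FB (-1.29) and went the other way in PDGFRAhi-like FB (0.40). The remaining LI fibroblast classes were under 2-fold for both genes. Fibroblasts with at least 2 of the MHC class II genes Cd74, H2-Aa, H2-Ab1 and H2-Eb1 made up 1136 LI (14.8%) and 1043 SI cells (18.3%) and held 2963 CPM of Timp1 against 916 CPM in the rest of LI (1.69) and 222 against 125 CPM in SI (0.82). No member of 7 was past 2-fold in both libraries by MHC class II (background 0.748%). The 2 traits moved together in LI, where 399 of 703 male and 477 of 6271 female fibroblasts were MHC class II positive. With both held fixed, LI Timp1 was at 3655 CPM in male positive, 2522 CPM in male negative, 1813 CPM in female positive and 723 CPM in female negative cells.

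The wider pathway was taken as a list of 41 other MMPs, regulators and matrix proteases. Of these, 24 reached 10 CPM in fibroblasts, and 4 were past 2-fold between the grafts, 2 higher in LI and 2 in SI, beside the 3.52% of genes at that level given above, with a median log2 ratio of 0.14 (14 above 0 and 10 below). Mmp11, stromelysin 3, was higher in LI (71.8 against 35.0 CPM, 1.02). Higher in SI were Tfpi2, a Kunitz-type protease inhibitor (15.3 against 34.5 CPM, -1.12), and Spock2, a testican proteoglycan (4.09 against 11.0 CPM, -1.23). With a pseudocount of 5 CPM these 3 calls ended, at 0.94, -0.96 and -0.81. Of the 17 other MMPs in the list, 5 reached 10 CPM in some class. Reck, a membrane-anchored MMP inhibitor, was at 18.6 CPM in LI and 28.7 CPM in SI (-0.60). Like Mmp2, the metalloproteinases Mmp16 and Mmp19 and the cathepsins Ctsk and Ctsl were at least 2-fold lower in mural and muscle cells than in fibroblasts of both grafts, and so was Serpinf1, a secreted serpin. Like Timp3, the aggrecan-cutting Adamts1 (755 against 288 CPM in LI and 714 against 223 CPM in SI) and Adamts4 were higher there, as was Mmp17, a GPI-anchored MMP.

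The genes most like each member over the 16 points of 8 classes in 2 libraries, by Pearson correlation of log2 (CPM plus 1) among 4744 candidates, are given as a description. The points share 2 libraries, and fibroblast and mural classes form separate clusters, so high values are common. For Mmp2 these were Bicc1 (0.99), Mfap2 and Fscn1, for Mmp14 Kcnk2 (0.97), Bicc1 and Pld3, for Mmp23 Serpinf1 (0.98), Loxl1 and Mgst1, and for Timp2 Loxl1 (0.98), S100a16 and Fndc1. For Mmp3 they were Cpxm1 (0.94), C1qtnf3 and Npc2, and for Mmp10 Tbc1d16 (0.89), Prrc2b and Fam168b. For Timp1 they were the ribosomal protein genes Rpl38 (0.94) and Rps28 and then Emb, and for Timp3 Apbb2 (0.86), Tmem100 and Stat6. Among the members, Mmp2 with Mmp14 (0.98) and Mmp23 with Timp2 (0.97) were the closest pairs.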

How the data were processed

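The authors sorted MSC from grafts, prepared 10x Genomics libraries with a 3′ or a 5′ kit (the kit of each library is not stated), and aligned reads to mm10; the submitters' processing notes name Cell Ranger 3.1.0 and Seurat 3. The deposited values are raw UMI counts per gene and barcode. Cells had 500 or more genes and 10% or fewer mitochondrial UMIs. Classes were set by marker genes per cell, with limits set after values were seen. From 116 to 554 cells per library and gate lay within 20% of a limit. Cells with markers of other lineages (115 LI and 134 SI) and unclassed cells (1035 and 784) were left out. Scrublet (scanpy 1.11.5) called 0 doublets in both libraries, so none were removed except in an alternative (992 and 647 cells by rate). Ratios used genes at 10 CPM in at least 1 of the groups compared, with a pseudocount of 1 CPM and a line at 2-fold. Poisson and Clopper-Pearson 95% intervals and exact binomial intervals of ratios came from scipy 1.17.1, and TMM factors from edgeR 4.0.16. Ratio calls and the intervals of ratios, levels and shares were tested on simulated data, whereas the thinning was not. Named genes are the 10 members, listed pathway genes at 10 CPM in some class, and the 3 genes most like each member. Members and lists were chosen with earlier results of these data known. The values of 1 listed pathway gene are not reported here.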

Additional observations from a re-analysis of the deposited data

Results flagged for a closer look

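Mmp3 and Mmp10 differed in opposite directions in the grafts under the same contrast, in 3 cases, and none of these differences between libraries was tested, since each graft was 1 library. Mmp3 was higher in adventitial-like FB than in the other fibroblasts in LI (log2 2.28) and lower in SI (-0.85). Mmp10 was higher in mural and muscle cells than in fibroblasts in LI (1.497) and lower in SI (-2.79), and the LI value rests on 54 mural and muscle UMIs (1.08 without the highest cell of each library). Mmp10 was also higher in male than in female fibroblasts in LI (1.33) and lower in SI (-0.59), with 73 UMIs in LI male cells. Of these 1 cell held 24, and the LI value was 0.81 without it and 0.86 with a pseudocount of 5 CPM, both under 2-fold. By class in SI, male cells were lower in other FB (5.17 against 48.8 CPM, -3.01), CD81-like (-2.31) and adventitial-like FB (-0.97). They were not lower in PDGFRAhi-like (0.25) or Fgfr2-like FB (0.24), the SI classes with the most Mmp10.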

How the results depend on the processing

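No paired analysis was possible because each graft was 1 library. Members past 2-fold between the grafts over all fibroblasts (3) were 2 without doublets, with mean per-cell CPM and at a minimum of 50 CPM, and those by MHC class II and by sex were 0 under each alternative run. By class, members past 2-fold between the grafts moved as follows, and the cause was not tested. In vascular mural-like cells the count was 1 in place of 0 under the stricter filter, without doublets, with classes from clusters, with stricter gates, with mean per-cell CPM, at a minimum of 1 CPM and in female cells. In CD81-like FB (1) it was 2 with clusters and stricter gates and 0 in female cells, and in Fgfr2-like FB (2) it was 4 with clusters. In PDGFRAhi-like FB (2) it was 1 with mean per-cell CPM and 1 in female cells, in other FB (2) 1 at a minimum of 50 CPM, and in adventitial-like FB (2) 4 at a minimum of 1 CPM. In pericyte-like cells (1) it was 0 at 50 CPM and 2 at 1 CPM, and in visceral SMC-like cells (1) 2 at 1 CPM and 0 in female cells. Against the rest of the lineage, PDGFRAhi-like FB (2) gave 1 with clusters and 0 at 50 CPM, Fgfr2-like FB (1) gave 2 with clusters and with stricter gates, adventitial-like FB (0) gave 1 with mean per-cell CPM, TMM scaling and a minimum of 1 CPM, vascular mural-like cells (0) gave 1 with stricter gates, pericyte-like cells (0) gave 1 at 1 CPM and visceral SMC-like cells (2) gave 1 in female cells. Members with the same highest class (2) were 5 with mean per-cell CPM and 4 in female cells, and pathway genes past 2-fold (4) were 1 with a pseudocount of 5 CPM and 2 at 50 CPM. Among values past 2-fold, directions turned for Timp3 in CD81-like FB over other fibroblasts of SI (0.16 with clusters) and Timp1 in pericyte-like over other mural and muscle cells of LI (0.21 in female cells). Of single-member values, 1996 changed little, 519 moved beyond their counting error and 2 turned from past 2-fold as given. A further 116 values of 66 ratios under 2-fold also had the other sign, among them Mmp3 LI over SI in CD81-like and Fgfr2-like FB with stricter gates, so a direction under 2-fold is not read as stable. LI clusters gave no pericyte-like or visceral SMC-like class, so no value exists there. TMM scaling shifted LI over SI ratios by less than 0.1, and those of PDGFRAhi-like FB over the lineage by -0.14 (LI) and -0.25 (SI), of mural and muscle cells over fibroblasts by -0.15 and -0.13, of adventitial-like FB in SI by 0.12 and of male over female fibroblasts in LI by 0.11. Dropping the highest cell, also among cells with a UMI of Mmp10 and among male cells, and a Timp1 limit of 100 per 10000 (94 LI cells, 0 SI cells) were chosen after seeing the data. Levels under 10 CPM, such as those of Mmp13 and Timp4, were not comparable at this depth.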
